A study of Mus musculus with 32 samples.

Results

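The cyclin-dependent kinase inhibitors of the mouse are 7 genes in 2 families, and their mRNAs were followed in the bladder with age and after senolytic treatment. The members are Cdkn1a, Cdkn1b and Cdkn1c of the Cip/Kip family and Cdkn2a, Cdkn2b, Cdkn2c and Cdkn2d of the Ink4 family. They were taken by symbol from the count table, in which all 7 were found among 32285 genes. Bulk total RNA was sequenced from 32 whole bladders of female C57BL/6 mice. Mice left untreated were 2 months old in the young group (n = 6), 10 months in the middle-aged group (n = 5) and 26 months in the untreated old group (n = 6). A further 3 groups of old mice, also collected at 26 months, were gavaged on 3 days of each month from 21 to 26 months of age. These received water (water-treated old, n = 5), the drug vehicle, a mix of Phosal, polyethylene glycol and ethanol (vehicle-treated old, n = 4), or a senolytic pair, dasatinib at 5 mg/kg/day with quercetin at 50 mg/kg/day (D+Q-treated old, n = 6). Each library came from 1 bladder, and the labels name no genetic change in any group.

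A cyclin-dependent kinase drives the cell cycle once it is bound by its cyclin. Ink4 proteins bind CDK4 and CDK6 and keep the D-type cyclins from them, while Cip/Kip proteins bind cyclin-CDK complexes more widely, CDK2 complexes among them. When these kinases are held back, the retinoblastoma pocket proteins stay bound to E2F factors and S-phase genes stay silent. The products p16 and p21, of Cdkn2a and Cdkn1a, are the usual markers of senescence, a lasting exit from the cell cycle. Dasatinib, a kinase inhibitor, and quercetin, a flavonoid, are given together to remove senescent cells. The urothelium that lines the bladder renews slowly, and most of its cells, like those of the muscle beneath it, rest outside the cycle.

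A gene-level count cannot separate the transcripts that some of these genes make from more than 1 start, so the bases before the paired starts of Cdkn2a and Cdkn1a are shown here. Cdkn2a (chromosome 4 of mm10, 89274471 to 89294653, minus strand) has an upstream start for p19Arf and one for p16, 12427 bases apart in the RefSeq annotation of GRCm38.p6. Both transcripts share downstream exons in different reading frames, and every Cdkn2a value given here is their sum. Cdkn1a (chromosome 17, 29090976 to 29100727, plus strand) has 2 starts that are 2790 bases apart. The RefSeq tables hold windows for 6 of the 7 members, all but Cdkn1c. Each window reaches 250 bases upstream, and bases that the count table counts as exon were left out. Capitals mark a GC box (GGGCGG, read on both strands), the letters TATAA on either strand, or a p53 response element, taken as a pair of consensus decamers at most 13 bases apart with the bases between them. The sequences are written 5′ to 3′ on the strand of the gene.
Cdkn2a upstream (p19Arf) start, chr4:89294654-89294869, minus: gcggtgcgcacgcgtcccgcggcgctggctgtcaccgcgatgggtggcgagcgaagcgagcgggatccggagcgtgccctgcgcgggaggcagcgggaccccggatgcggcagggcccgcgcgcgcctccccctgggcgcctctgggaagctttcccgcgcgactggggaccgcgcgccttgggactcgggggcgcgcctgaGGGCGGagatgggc
Cdkn2a downstream (p16) start, chr4:89282193-89282442, minus: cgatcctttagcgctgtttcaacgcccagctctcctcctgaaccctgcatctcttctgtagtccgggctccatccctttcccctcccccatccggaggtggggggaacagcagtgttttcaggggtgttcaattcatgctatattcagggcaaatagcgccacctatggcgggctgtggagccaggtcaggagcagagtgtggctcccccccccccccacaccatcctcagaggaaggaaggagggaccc
Cdkn1a upstream start, chr17:29090729-29090975, plus: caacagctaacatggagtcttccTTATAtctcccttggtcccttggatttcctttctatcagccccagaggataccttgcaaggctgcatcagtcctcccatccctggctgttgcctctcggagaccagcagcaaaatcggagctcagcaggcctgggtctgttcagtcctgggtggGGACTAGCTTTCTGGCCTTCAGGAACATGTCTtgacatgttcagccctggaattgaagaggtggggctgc
Cdkn1a downstream start, chr17:29093519-29093768, plus: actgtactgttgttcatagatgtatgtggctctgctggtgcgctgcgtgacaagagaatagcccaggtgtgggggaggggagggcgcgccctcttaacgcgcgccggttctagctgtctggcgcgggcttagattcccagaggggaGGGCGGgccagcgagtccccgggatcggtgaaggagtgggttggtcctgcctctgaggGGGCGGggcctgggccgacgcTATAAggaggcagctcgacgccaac
The 2 windows of Cdkn2a were unlike in base composition, with 78.4% G or C over the 250 bases at the p19Arf start and 60.0% at the p16 start. The p19Arf window held 2 GC boxes, 1 of them among the 34 bases left out, and the p16 window held none. Over all 32851 RefSeq windows of 250 bases, 32.7% held a GC box and 22.8% the letters TATAA on either strand. The upstream start of Cdkn1a, a classic p53 target, had a match to the p53 pattern from 73 to 42 bases before the start. Such a match was found in 0.0639% of all windows. The bases right after it, tgacatgttc, depart from the decamer consensus at the first letter only and were left unmarked. The marked stretch is therefore a match to the pattern and not a mapped site. These matches describe the letters only.

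The inhibitors fell into tiers by their level per length, given as TPM, in which counts are divided by exon length and brought to 1 common total per bladder. Cdkn1a and Cdkn1b, the gene of p27, were the most abundant in all 6 groups. Cdkn1a averaged 62.5 ± 10.8 TPM (SD, n = 6) in young and 80.9 ± 4.27 TPM (SD, n = 5) in middle-aged bladders. Cdkn1b averaged 66.5 ± 11.4 TPM (SD, n = 6) in young and 60.1 ± 6.06 TPM (SD, n = 5) in middle-aged bladders. Only in the young group did the bladders of these neighbours in the order overlap, and in the 5 other groups every Cdkn1a level lay above every Cdkn1b level. Cdkn2b, the gene of p15, came next, with group means from 36.1 to 41.4 TPM that did not overlap the genes above or below it in any group. Cdkn1c, the imprinted gene of p57, and Cdkn2d, the gene of p19Ink4d, traded places, since their bladders overlapped in every group, at means from 18.9 to 23.2 TPM for Cdkn1c and from 19.2 to 21.8 TPM for Cdkn2d. Cdkn2c, the gene of p18, followed at 9.47 to 14.1 TPM. Cdkn2a was last in all 6 groups, at means from 2.03 TPM in young to 4.93 TPM in water-treated old bladders.

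**Figure D1:**
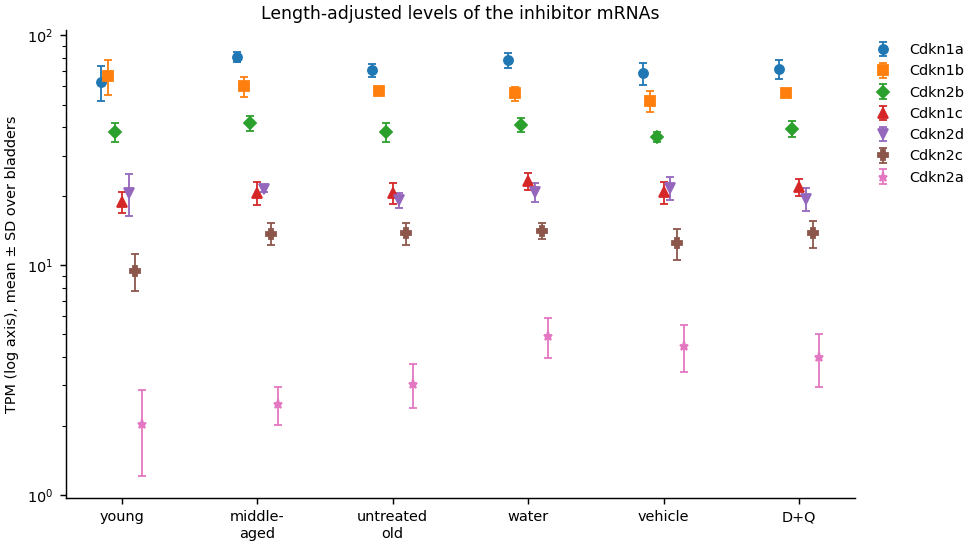
Mean TPM of the 7 inhibitors in each group on a log axis, with error bars of 1 SD over bladders. Cdkn2a lies lowest in every group, from 2.03 TPM in young to 4.93 TPM in water-treated old bladders, and Cdkn1c and Cdkn2d overlap throughout.

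Summed over the 7 genes, the level was 218 ± 21.5 TPM (SD, n = 6) in young, 241 ± 12.7 TPM (SD, n = 5) in middle-aged and 222 ± 10.6 TPM (SD, n = 6) in untreated old bladders. Cdkn1a and Cdkn1b each gave about as much of that sum as the other in young bladders, with mean shares of 28.6% and 30.4%. Cdkn2a, which is the member most used as a senescence marker, gave 0.950% of it in young, 1.37% in untreated old and 2.07% in water-treated old bladders.

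The depth set what could be read from the rarest member. Assigned counts summed to 15088372 to 52650259 per bladder, and 3 bladders stayed under 20000000 counts (young replicates 3 and 4 and water-treated replicate 1). Cdkn2a had 10 to 99 counts per bladder, so that counting error alone, if each count is an independent molecule, is 31.6% of the value at the lowest and 10.1% at the highest count. Cdkn2c had 72 to 662 counts, and Cdkn1a, at 732 to 3758 counts, had a counting error of 3.70% at most. All 7 genes passed the filter on low counts in all 12 comparisons, in which counts were tested with edgeR's quasi-likelihood test and Benjamini-Hochberg adjustment over all genes tested. The per-bladder levels below are in CPM, counts brought to that common total by library size and TMM factor with no regard to length, which compare 1 gene between bladders. The labels name the tissue, and all markers of urothelium (Upk1a, Upk1b, Upk2, Upk3a, Krt5 and Krt20) and of smooth muscle were found, the urothelial markers at a summed 3513 to 4714 CPM per bladder. In whole tissue, fewer cells of a type and less RNA per cell cannot be told apart.

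From 2 to 10 months of age, Cdkn2c and Cdkn1a rose, and the other 5 inhibitors did not pass the test (2 of 7, against 10.8% of all genes tested). Cdkn2c, whose product restrains CDK6, was between 4.91 and 8.26 CPM in the 6 young bladders with a median of 7.94 CPM. In the middle-aged bladders it was 10.5, 11.9, 10.6, 9.73 and 9.31 CPM in replicates 1 to 5. Every middle-aged bladder therefore stood above every young one, as was so for 3.37% of all genes tested. The log2 fold change was 0.52 (SE 0.12, adjusted p = 0.0206). Cdkn1a was 49.9 CPM at the lowest, 62.3 CPM at the median and 83.8 CPM at the highest of the young bladders, and 80.3, 81.6, 81.3, 76.6 and 85.5 CPM in the middle-aged bladders. The highest young value belonged to replicate 4, a shallow library, and the other 5 young bladders all lay below the middle-aged group. The log2 fold change of Cdkn1a was 0.36 (SE 0.10, adjusted p = 0.0320).

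Both calls leaned on single bladders. Cdkn2c lost its call without middle-aged replicate 1 (adjusted p = 0.0510) or 2 (adjusted p = 0.0588), with log2 fold changes of 0.52 and 0.47. Cdkn1a lost its call without young replicate 1, 2 or 6 or without middle-aged replicate 1, 2, 3 or 5, at adjusted p from 0.0532 to 0.0847, while its log2 fold change stayed between 0.35 and 0.37. The young group also looked different without its 2 shallow bladders, an alternative chosen after the data were seen. Among the bladders of at least 20000000 counts, 4 inhibitors passed, against 22.0% of all genes tested. Cdkn1a (log2 fold change 0.40, adjusted p = 0.000527), Cdkn2c (0.45, adjusted p = 0.0111) and Cdkn2b (0.22, adjusted p = 0.0424) were higher and Cdkn1b (-0.27, adjusted p = 0.0142) was lower in middle age. Cdkn1b, whose product holds resting cells out of the cycle, was 93.4, 95.6, 98.0 and 87.7 CPM in the 4 deeper young bladders and 63.0 and 79.6 CPM in the 2 shallow ones. With all young bladders its log2 fold change was -0.15 (SE 0.10, adjusted p = 0.358), and that of Cdkn2b was 0.12 (SE 0.08, adjusted p = 0.367). The 2 shallow bladders were within the range of the other young ones for smooth muscle, T cell, macrophage, Schwann cell and skeletal muscle markers. They were just above it for urothelial markers, at a summed 4399 and 4423 CPM against at most 4309 CPM. Both were below it for adipocyte markers (2.18 and 0.240 CPM against at least 7.18 CPM). Replicate 4 was below it for fibroblast markers (10956 CPM against at least 11350 CPM). Replicate 3 was above it for endothelial markers (269 CPM against at most 261 CPM) and below it for plasma cell markers (6.55 CPM against at least 8.49 CPM). The part of these cells in the values was not tested.

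**Figure D2:**
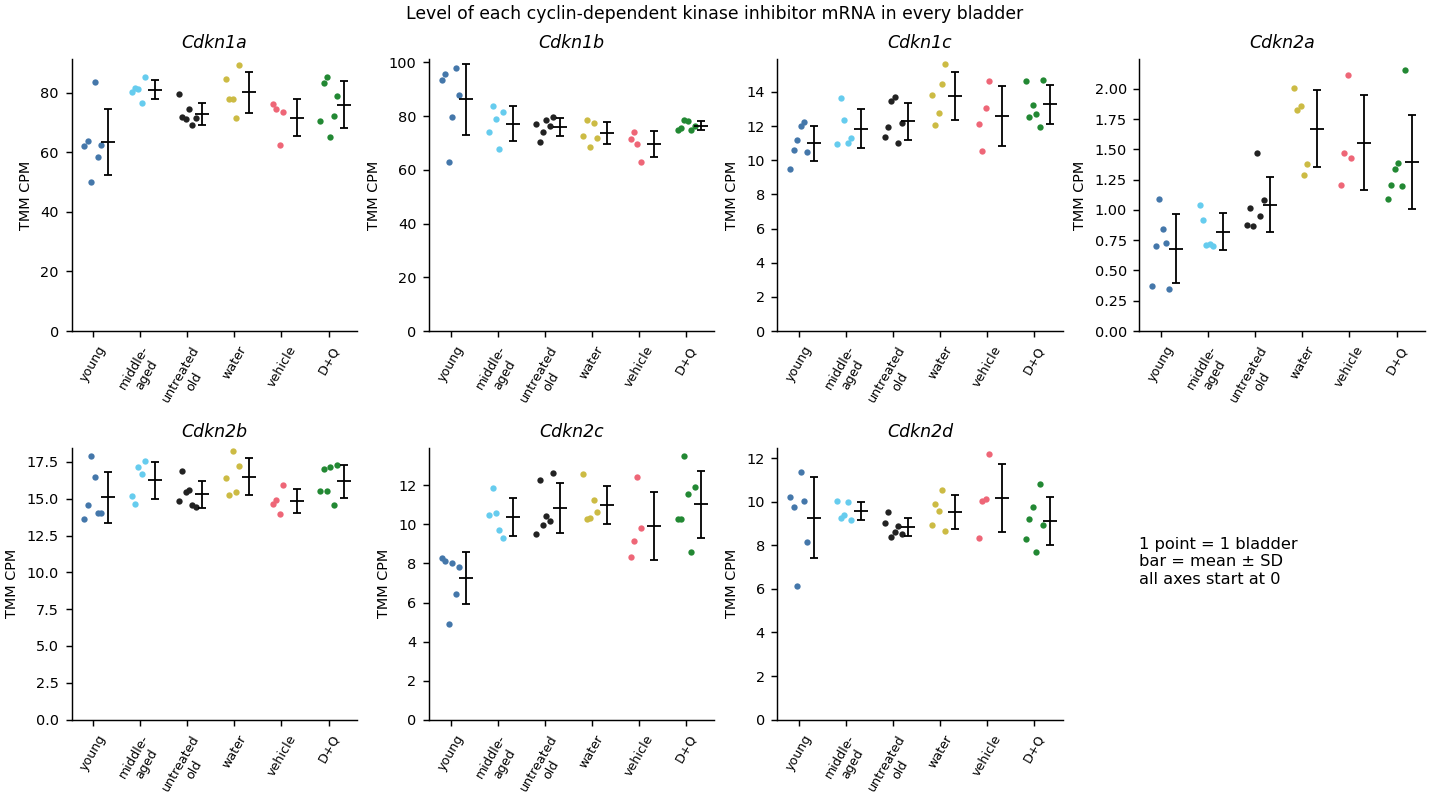
TMM CPM of each inhibitor in every bladder, 1 panel per gene with axes from 0, and the mean and SD beside each group. Young Cdkn2c levels (4.91 to 8.26 CPM) lie below all middle-aged levels (9.31 to 11.9 CPM), and Cdkn2a is highest in the 3 gavaged groups.

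From 10 to 26 months, Cdkn1a fell and no other inhibitor passed the test (1 of 7, against 24.0% of all genes tested). In the 6 untreated old bladders Cdkn1a was between 69.2 and 79.7 CPM with a median of 71.8 CPM, and 5 of them lay below the lowest middle-aged bladder at 76.6 CPM. The fall was small, with a log2 fold change of -0.15 (SE 0.04, adjusted p = 0.0136), and it held without each bladder in turn. In a fit of all 6 groups it did not pass (adjusted p = 0.265). Of 6 urothelial markers, 3 (Upk2, Upk3a and Upk1a) fell over the same months and none rose, with a median log2 fold change of -0.15 and a summed level of 3923 to 4540 CPM in middle-aged and 3705 to 3986 CPM in untreated old bladders. Their part in the fall of Cdkn1a was not tested. Cdkn2a was 1.04, 0.919, 0.712, 0.721 and 0.706 CPM in the middle-aged bladders and from 0.869 to 1.47 CPM, with a median of 0.981 CPM, in the untreated old ones. These ranges overlapped, and the log2 fold change of 0.36 (SE 0.17, adjusted p = 0.161) did not pass. The levels of Cdkn2c were 10.4 ± 0.985 CPM (SD, n = 5) and 10.8 ± 1.29 CPM (SD, n = 6), so that its higher level of middle age was also seen at 26 months.

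Across the whole span from 2 to 26 months, Cdkn2c rose and was the sole inhibitor past the threshold (1 of 7, against 25.1% of all genes tested). Its old bladders ranged from 9.51 to 12.6 CPM and did not overlap the young ones, which held for 6.70% of all genes in that direction. The log2 fold change was 0.57 (SE 0.13, adjusted p = 0.00447). This comparison shares its young bladders with the first and its old bladders with the second, so the 3 are not independent. Cdkn2a was 0.348 CPM at the lowest, 0.716 CPM at the median and 1.09 CPM at the highest of the young bladders. Its log2 fold change to old age was 0.68 (SE 0.26, adjusted p = 0.0721), a miss that turned on the young libraries. Without young replicate 3, which had the highest young Cdkn2a level from 16 counts, the log2 fold change was 0.82 (adjusted p = 0.0301), and Cdkn1b passed as well, at -0.26 (adjusted p = 0.00457). Without young replicate 4, Cdkn1a passed at 0.30 (adjusted p = 0.00392), against 0.20 (SE 0.09, adjusted p = 0.126) with all bladders. With both left out, 4 inhibitors passed, against 29.9% of all genes tested. Cdkn2a (0.93, adjusted p = 0.0181), Cdkn2c (0.50, adjusted p = 0.00525) and Cdkn1a (0.24, adjusted p = 0.00227) were then higher and Cdkn1b (-0.30, adjusted p = 0.000594) lower in old bladders. With all 6 young bladders the log2 fold change of Cdkn1b was -0.18 (SE 0.09, adjusted p = 0.150).

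**Figure D3:**
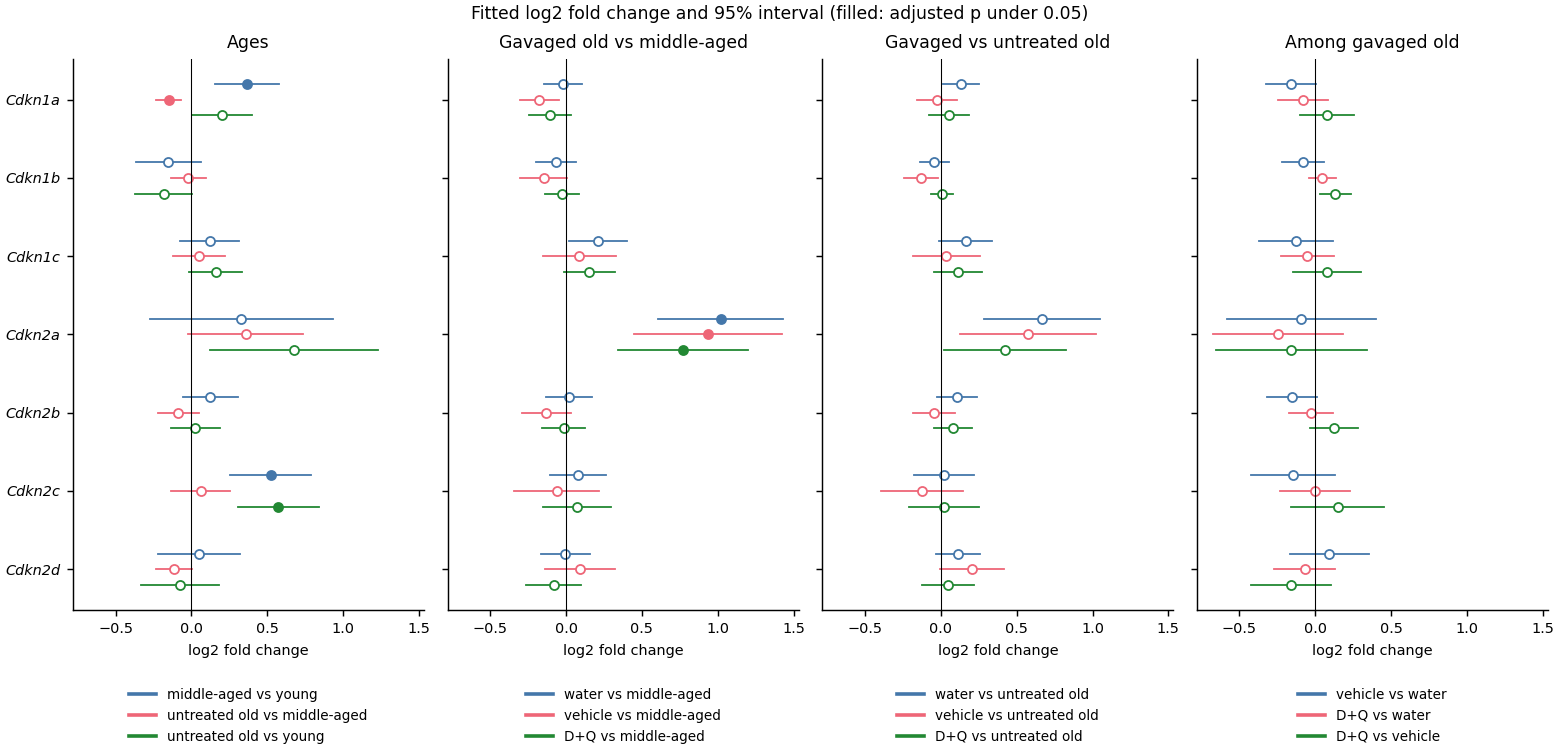
Fitted log2 fold changes of the 7 inhibitors with 95% intervals in the 12 comparisons, filled where the adjusted p was under 0.05. The 7 filled points are Cdkn1a and Cdkn2c among the ages and Cdkn2a in each gavaged group against middle-aged bladders.

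In all 3 gavaged old groups, Cdkn2a stood higher than in middle age and was the sole inhibitor to pass there. These groups differ from the middle-aged group in age as well as in gavage, and the parts of age and gavage cannot be told apart there. In water-treated old bladders it was 2.01, 1.83, 1.86, 1.29 and 1.38 CPM in replicates 1 to 5. In vehicle-treated old bladders it was 1.20, 1.47, 2.12 and 1.43 CPM in replicates 1 to 4. In D+Q-treated old bladders it ran from 1.09 to 2.16 CPM with a median of 1.27 CPM. All 15 gavaged bladders lay above the highest middle-aged bladder, at 1.04 CPM, and 6 of the 15 above the highest untreated old one, at 1.47 CPM (3 of 5 with water, 2 of 4 with vehicle and 1 of 6 with D+Q).

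Against middle-aged bladders, the log2 fold change of Cdkn2a was 1.02 (SE 0.19, adjusted p = 0.00475) after water, where 13.3% of all genes passed. It was 0.93 (SE 0.22, adjusted p = 0.0404) after vehicle, where 4.54% passed, and 0.77 (SE 0.20, adjusted p = 0.0217) after D+Q, where 12.1% passed. Groups that did not overlap in that direction were found for 6.46%, 4.88% and 5.60% of all genes in the 3 comparisons, which share the 5 middle-aged bladders. The call after water held without each bladder in turn. The call after vehicle was lost without any of the 5 middle-aged bladders or without vehicle-treated replicate 2, 3 or 4, at adjusted p from 0.0570 to 0.110. The call after D+Q was lost without middle-aged replicate 3, 4 or 5 (adjusted p = 0.0609, 0.0516 and 0.0637). Where the call was lost, the log2 fold change lay between 0.72 and 1.03. Markers of immune cells were higher as well. All 5 T cell markers rose against middle age after water, vehicle and D+Q, as did 3, 4 and 4 of 4 plasma cell markers and 3, 3 and 2 of 5 macrophage markers, and their part in the Cdkn2a values was not tested. Cdkn1a after vehicle was also apart from middle age, since its 4 bladders (76.1, 74.5, 62.6 and 73.6 CPM) all lay below the middle-aged ones, at a log2 fold change of -0.18 (SE 0.06, adjusted p = 0.113) that did not pass. Groups apart in that direction were found for 3.92% of all genes.

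Against untreated old bladders of the same age, no inhibitor passed after water, vehicle or D+Q. Of all genes, 0.487% were higher and 0.516% lower past the threshold after water, and 0% passed after vehicle or D+Q. At an unadjusted p under 0.05, edgeR gave 2 inhibitors after water (Cdkn2a and Cdkn1a), where 16.0% of all genes lay under it, 2 after vehicle (Cdkn2a and Cdkn1b; 8.39%) and 1 after D+Q (Cdkn2a; 12.9%). DESeq2 called 127 genes after vehicle and 172 after D+Q with no inhibitor among them, though it gave Cdkn2a no adjusted p after vehicle. Cdkn2a had the largest log2 fold change of the 7 in each. It was 0.67 (SE 0.18, adjusted p = 0.106) after water, 0.57 (SE 0.20, adjusted p = 0.511) after vehicle and 0.42 (SE 0.19, adjusted p = 0.368) after D+Q. The 95% intervals, which are not adjusted, were 0.28 to 1.05, 0.13 to 1.02 and 0.02 to 0.82. The missed call after water turned on 1 untreated old bladder, replicate 4, whose 1.47 CPM was far above the other 5 (0.869 to 1.09 CPM). Without it the log2 fold change was 0.78 and passed (adjusted p = 0.0470). DESeq2 also called Cdkn2a after water, at 0.65 (adjusted p = 0.0336), among 694 genes called there, against 173 in edgeR's main fit. In the same comparison the fit of all 6 groups, the replicate number as block and limma each called 0 genes, Cdkn2a included. The highest water-treated level, 2.01 CPM in replicate 1, came from 38 counts in a shallow library. The water-treated mean was 1.67 CPM with that bladder and 1.59 CPM over the 4 deeper ones.

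The senolytic question is whether D+Q lowered these mRNAs, and no inhibitor was lower at the threshold in D+Q-treated bladders against any old group. Against untreated old bladders, the log2 fold changes of the other 6 were 0.06 for Cdkn1a (95% interval -0.08 to 0.19), 0.01 for Cdkn1b (-0.07 to 0.08), 0.11 for Cdkn1c (-0.04 to 0.27), 0.08 for Cdkn2b (-0.04 to 0.20), 0.02 for Cdkn2c (-0.21 to 0.25) and 0.05 for Cdkn2d (-0.13 to 0.22). The intervals were narrow for Cdkn1b, whose 6 D+Q-treated bladders lay between 74.7 and 78.5 CPM, and wide for Cdkn2c. Against vehicle, the comparison that isolates the drugs, the log2 fold change of Cdkn2a was -0.16 (95% interval -0.66 to 0.34, adjusted p = 0.994). The interval thus includes a fall of 0.66 on the log2 scale. Against water it was -0.25 (95% interval -0.67 to 0.18, adjusted p = 0.806). For Cdkn1a the values were 0.08 (95% interval -0.10 to 0.26) against vehicle and -0.08 (95% interval -0.25 to 0.08) against water. Vehicle and water differed by -0.09 for Cdkn2a (95% interval -0.58 to 0.40).

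Among these 3 comparisons of gavaged groups, no inhibitor and no gene passed edgeR's threshold. At an unadjusted p under 0.05 there was 1 inhibitor (Cdkn1b) in D+Q against vehicle, where 4.18% of all genes lay under it, 0 in D+Q against water (7.82%) and 0 in vehicle against water (1.86%). DESeq2 called 13, 66 and 0 genes, and 0 inhibitors in each. Cdkn1b was the sole inhibitor whose groups did not overlap, at 62.8 to 74.2 CPM (vehicle) against 74.7 to 78.5 CPM (D+Q), as was so for 0.759% of all genes in that direction. Its unadjusted p of 0.0174 became 0.994 after adjustment. The D+Q-treated bladder with the highest Cdkn2a, replicate 6 at 2.16 CPM and 99 counts, lay apart from the other 5, which ran from 1.09 to 1.39 CPM.

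The cyclins and kinases on which the inhibitors act had median log2 fold changes larger in size than those of the inhibitors in each of the 2 age steps, for which the medians of the 7 inhibitors were 0.12 and -0.02. Of 12 cyclin and CDK genes, 6 fell and none rose from 2 to 10 months, with a median log2 fold change of -0.58 against 0.00 for all genes. Over all genes tested, 5.85% fell and 4.96% rose past the threshold. Ccnb1, the mitotic cyclin B1, fell from 2.09 to 0.426 CPM (log2 fold change -2.33, SE 0.53, adjusted p = 0.0169). Ccna2, cyclin A2 of S phase, had a log2 fold change of -1.59 (SE 0.46, adjusted p = 0.0423), and Cdk1, the mitotic kinase, one of -1.41 (SE 0.31, adjusted p = 0.0145). From 10 to 26 months, 8 of the 12 rose and none fell, with a median of 0.37. Over all genes tested, 24.0% passed in that step in either direction. Ccnb1 rose to 1.63 CPM (1.95, SE 0.35, adjusted p = 0.00144), Ccne1, cyclin E1 of the entry into S phase, rose by 1.13 (SE 0.20, adjusted p = 0.00127) and Ccnb2, another mitotic cyclin, by 1.12 (SE 0.22, adjusted p = 0.00276) on the log2 scale. Between 2 and 26 months, 1 of the 12 passed, against 25.1% of all genes. This was Ccnd1, cyclin D1, which fell from 142 to 107 CPM (-0.40, SE 0.13, adjusted p = 0.0426).

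The proliferation list, which shares Ccna2 and Ccnb1 with the cyclins, showed the same fall and rise. Of its 16 genes, 8 fell and none rose from 2 to 10 months (median log2 fold change -1.10), and 13 rose and none fell from 10 to 26 months (median 0.84). In either direction, 10.8% of all genes passed in the first of these steps and 24.0% in the second. Mki67, the gene of the marker Ki-67, went from 14.9 ± 10.2 CPM (SD, n = 6) to 4.62 ± 1.49 CPM (SD, n = 5) and then to 21.1 ± 6.75 CPM (SD, n = 6), log2 fold changes of -1.69 (SE 0.43, adjusted p = 0.0252) and 2.20 (SE 0.26, adjusted p = 9.00e-05). Top2a, a DNA topoisomerase of dividing cells, rose by 1.64 (SE 0.24, adjusted p = 0.000445) on the log2 scale in old age, and Bub1, of the spindle checkpoint, had fallen by 1.70 (SE 0.48, adjusted p = 0.0390) before. With the young bladders of at least 20000000 counts alone, 12 proliferation genes and 11 cyclins and CDKs fell from 2 to 10 months, where 11.2% of all genes did. Single bladders left out gave 1 to 11 and 2 to 8. Fewest were left without middle-aged replicate 5, 1 proliferation gene and 2 cyclins and CDKs, while their median log2 fold changes were then -1.09 and -0.57. The old-age rise held at 13 to 14 proliferation genes and 7 to 9 cyclins and CDKs without each bladder in turn.

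**Figure D4:**
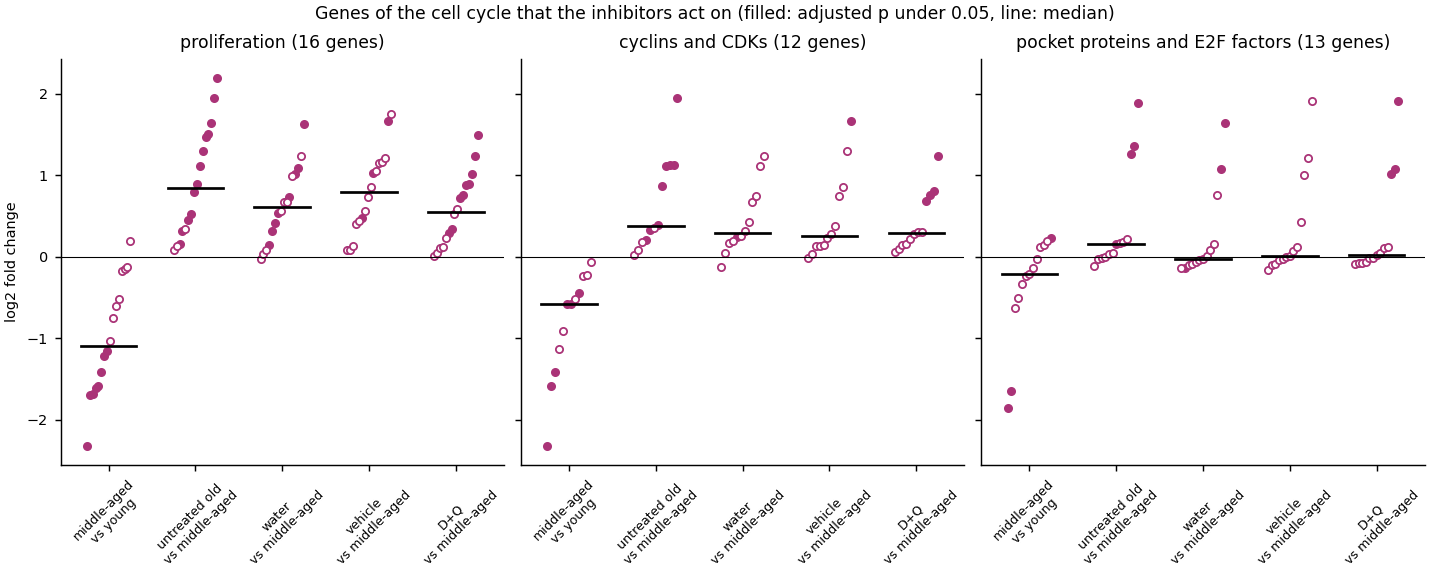
Log2 fold changes of the genes of 3 cell cycle lists in 5 comparisons, 1 point per gene, filled where the adjusted p was under 0.05, with a line at the median. The proliferation genes lie mostly below 0 from young to middle age (median -1.10) and above 0 from middle to old age (median 0.84).

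Immune cell markers moved with that rise. The summed level of 5 of them (Cd3d, Cd3e, Cd3g, Trac and Cd28) was 6.89 to 9.76 CPM in middle-aged and 26.9 to 57.2 CPM in untreated old bladders, and all 5 rose. In the gavaged groups their range was 19.9 to 35.9 CPM with water, 17.7 to 30.9 CPM with D+Q and 11.99 to 44.5 CPM with vehicle. No T cell marker was at 0 in any group. From 10 to 26 months, 4 of 4 plasma cell and 4 of 5 macrophage markers rose too, where 24.0% of all genes passed. The summed fibroblast markers, collagens among them, were 10956 to 19036 CPM in young and 7546 to 9398 CPM in middle-aged bladders, beside the fall of the cyclins and the rise of Cdkn2c and Cdkn1a. The part of these cells in the values of the inhibitors and of the cell cycle genes was not tested.

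In the pocket proteins and E2F factors, through which the inhibitors act on S-phase genes, 1 of 13 rose (Tfdp2) and 2 fell (E2f7 and E2f8) from 2 to 10 months, and 4 rose from 10 to 26 months. Of all genes tested, 10.8% passed in the first step and 24.0% in the second. E2f2, an activating factor, rose from 1.59 to 5.86 CPM (log2 fold change 1.88, SE 0.15, adjusted p = 6.53e-06), and the repressors E2f8 (1.36, SE 0.22, adjusted p = 0.000739) and E2f7 (1.26, SE 0.19, adjusted p = 0.000407) rose with it. In the gavaged groups against middle-aged bladders, 8, 3 and 9 of the 16 proliferation genes rose after water, vehicle and D+Q and none fell. Of the cyclins and CDKs, 1, 1 and 4 rose. In these comparisons 13.3%, 4.54% and 12.1% of all genes passed. Between gavaged and untreated old bladders none of these 3 lists had a gene past the threshold.

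Of 27 regulators of the inhibitors, 4 rose and 5 fell from 10 to 26 months, where 24.0% of all genes passed, with a median log2 fold change of 0.04. Ets1, a factor known to activate Cdkn2a, rose from 39.8 to 66.7 CPM (0.74, SE 0.07, adjusted p = 2.28e-05). Skp2 (0.37, SE 0.10, adjusted p = 0.0145) and Cks1b (0.25, SE 0.07, adjusted p = 0.0152), which together direct p27 to degradation, rose as well, and Bmi1, a Polycomb repressor of Cdkn2a, was the fourth. Those with the largest falls were Smad4 of TGF-beta signalling (-0.28, SE 0.06, adjusted p = 0.00430), Cbx7, another Polycomb repressor of Cdkn2a (-0.21, SE 0.05, adjusted p = 0.00961), and Tbx2, a repressor of the same locus (-0.19, SE 0.04, adjusted p = 0.00622). From 2 to 10 months, 1 of the 27 had risen (Foxo4) and 2 had fallen (Skp2 and Foxo1), where 10.8% of all genes passed. Skp2 did not pass between 2 and 26 months. Ets1 also rose against middle age after water (0.58, SE 0.11, adjusted p = 0.00484), vehicle (0.61, SE 0.13, adjusted p = 0.0297) and D+Q (0.43, SE 0.07, adjusted p = 0.00123). Between water-treated and untreated old bladders, 1 of the 27 passed, where 0.487% of all genes rose and 0.516% fell past the threshold. This was Bmi1, which fell from 42.4 to 36.0 CPM (-0.23, SE 0.04, adjusted p = 0.0164). In this comparison 0 genes passed in the fit of all 6 groups, with the replicate number as block or with limma. The Bmi1 call was therefore lost in these alternatives. The part of Bmi1 in the Cdkn2a values was not tested.

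Of 15 other targets of p53, none passed edgeR's threshold from 2 to 10 months, when Cdkn1a rose and 10.8% of all genes passed. From 10 to 26 months, when Cdkn1a fell, 3 rose and 1 fell, where 24.0% of all genes passed. Gdf15, a stress cytokine, rose from 0.476 to 0.872 CPM (0.88, SE 0.23, adjusted p = 0.0136), Fas, a death receptor, by 0.31 (SE 0.09, adjusted p = 0.0215) and Ccng1, cyclin G1, by 0.11 (SE 0.03, adjusted p = 0.0147), and Sesn1 fell by 0.23 (SE 0.07, adjusted p = 0.0229) on the log2 scale. Of 6 glucocorticoid response genes, 4 rose from 10 to 26 months, led by Fkbp5, a cochaperone of the receptor, which went from 33.6 to 77.8 CPM (1.21, SE 0.08, adjusted p = 2.66e-06). Zbtb16, a transcription factor induced by glucocorticoids, rose by 1.16 (SE 0.23, adjusted p = 0.00277) and Tsc22d3, the gene of GILZ, by 0.47 (SE 0.14, adjusted p = 0.0228). No gene of this list passed between gavaged and untreated old bladders.

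Cdkn2a and Cdkn2b (chromosome 4, 89306299 to 89311039) lie 11645 bases apart with no annotated gene between, yet Cdkn2b passed no test with all bladders. In the gavaged groups, where Cdkn2a was higher than in middle age, the log2 fold changes of Cdkn2b against middle-aged bladders were 0.02, -0.13 and -0.02 after water, vehicle and D+Q. Mtap, the next gene along, was tested in every comparison and passed in none, and Dmrta1 had too few counts. Cdkn1c (chromosome 7, 143458339 to 143461050) overlaps Gm44732 on the other strand, and since the strand setting of the counting is not given, reads of the pair may be mixed. Cdkn1c lay from 9.49 to 12.2 CPM in the 6 young and from 12.1 to 15.6 CPM in the 5 water-treated old bladders, 2 groups that were not tested against each other. It passed in none of the 12 comparisons. After water its log2 fold change against middle-aged bladders was 0.21 (SE 0.09, adjusted p = 0.137). Of the list genes named here, Ccna2, Ccnd1, E2f7, E2f8, Cbx7, Igf2 and Cd3e also share exon bases with a gene on the other strand. Of 6 genes listed from the chromosome 7 region of Cdkn1c, 1 rose and 3 fell from 10 to 26 months, where 24.0% of all genes passed. Phlda2, a growth-restraining imprinted gene, fell from 9.77 to 5.75 CPM (-0.77, SE 0.12, adjusted p = 0.000542), Igf2, a growth factor, had a log2 fold change of -0.32 (SE 0.06, adjusted p = 0.00133) and Slc22a18 one of -0.19 (SE 0.05, adjusted p = 0.0185). H19, a non-coding RNA, rose by 0.77 (SE 0.24, adjusted p = 0.0306) on the log2 scale, having fallen from 2 to 10 months (-2.33, SE 0.28, adjusted p = 0.000827).

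Cdkn2d (chromosome 9, 21288410 to 21291407) passed no test, and its group means ran from 8.82 ± 0.410 CPM (SD, n = 6) in untreated old to 10.2 ± 1.56 CPM (SD, n = 4) in vehicle-treated old bladders. Cdkn2c (chromosome 4, 109660876 to 109667189) and Cdkn1b (chromosome 6, 134920401 to 134925513) were described above for the ages and passed no test among old groups. Cdkn2c lay from 8.33 to 13.5 CPM over all 21 old bladders, with none below the highest young bladder at 8.26 CPM.

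The genes whose levels over the 32 bladders were most like each inhibitor were sought among 15043 genes by Pearson's r of log2(CPM + 0.5). These bladders share groups, so r after subtracting the group means is given too, as a description. For Cdkn2a the nearest were Rps13 (r = 0.80, 0.55 within groups), Ftl1 (0.79, 0.61) and Gsta3 (0.78, 0.43), genes of a ribosomal protein, of ferritin light chain and of a glutathione transferase. For Cdkn1a they were Kcnc4 (0.79, 0.63), Samd10 (0.78, 0.64) and Klc4 (0.77, 0.65), and for Cdkn1b Casd1 (0.84, 0.78), Gulp1 (0.82, 0.72) and Fam122b (0.80, 0.82). Cdkn1c was nearest to Sox13 (0.77, 0.71), Tnnt2 (0.75, 0.58) and Gsta3 (0.74, 0.62). Cdkn2c was nearest to Wdr72 (0.82, 0.53), Pcdhb9 (0.80, 0.49) and Nsg2 (0.79, 0.59). Cdkn2b (Pdzk1ip1, 0.68, 0.73, then Gstk1 and Il17re) and Cdkn2d (Gm42868, 0.67, 0.72, then 2810029C07Rik and A930024E05Rik) had the weakest nearest genes. Gsta3 alone stood near 2 inhibitors, and no inhibitor was among the 3 nearest genes of another.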

How the data were processed

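RNA from single bladders was made into stranded total RNA libraries. Alignment to mm10 was by STAR 2.7.3 and counting by featureCounts; the authors deposited these raw counts beside the exon length of every gene. The strand setting is not given in the sources used here. A second deposited table holds log2 values, namely log2 of a length-scaled count plus 1, with a fixed total per bladder, which served for 1 alternative. The 2 tables hold the same 32 bladders.

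Each of 12 comparisons was fitted on its 2 groups with edgeR 4.0.16 (R 4.3.3), with TMM factors, filterByExpr and the quasi-likelihood test, at a Benjamini-Hochberg adjusted p under 0.05. Intervals are 95% and unadjusted. CPM used TMM factors over all bladders, and TPM the deposited lengths. Sequences came from RefSeq windows (GRCm38.p6). Alternatives were DESeq2 1.42.0, RLE or no factors, no filter, a fit of all groups, limma 3.58.1 on log2(TPM + 1), the replicate number as block and each bladder left out. The fits were tested on simulated data. The members and gene lists were chosen with earlier results of these data known. The list genes named are among those past the threshold with the 3 largest rises or falls of a list in a comparison. Not every such gene of every comparison is named. Bmi1 is named besides as the last of 4 that rose, and Tfdp2 as the single one that rose. Counting errors cover counting only, and p-values measure the spread between these bladders. No label gives a sequencing batch. One further marker list is not reported here. Cell type markers were urothelium, smooth muscle, fibroblast, endothelium, plasma cell, T cell, macrophage, Schwann cell, adipocyte and skeletal muscle, and lists not named in the results are given in the closing section.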

Additional observations from a re-analysis of the deposited data

Results flagged for a closer look

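In 2 of the 42 combinations of an inhibitor and a group, 1 bladder lay far from the others by Dixon's test, which flags about 1 in 20 groups by chance. Both concern Cdkn2a. Untreated old replicate 4 stood at 1.47 CPM (52 counts), while the other 5 untreated old bladders lay between 0.869 and 1.09 CPM. D+Q-treated old replicate 6 stood at 2.16 CPM (99 counts), while the other 5 D+Q-treated bladders lay between 1.09 and 1.39 CPM.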

How the results depend on the processing

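The mean levels of all 7 inhibitors moved by less than 1 SD with other scaling factors. Over 1519 refits of the 84 log2 fold changes, the 7 calls never changed sign and passed in 102 of 128 refits. The number of inhibitors past the threshold moved as follows, the causes not being tested. From young to middle age it was 2, and 1 with the replicate block, 4 with bladders of at least 20000000 counts (chosen after seeing the data) and 0 to 2 with single bladders left out. From middle to old age it was 1, and 0 both with the replicate block and in the fit of all 6 groups. From young to old age it was 1, and 3 in the fit of all 6 groups (Cdkn1b, Cdkn2a and Cdkn2c), 4 with the deeper bladders and 1 to 3 with single bladders left out. Between water-treated and untreated old bladders it was 0, and 1 with DESeq2 and 0 to 1 with single bladders left out. Against middle age, 1 inhibitor passed after vehicle, and 0 with no filter, 0 with the replicate block and 0 to 1 with single bladders left out. After D+Q it was 1, and 0 with the replicate block and 0 to 1 with single bladders left out. The replicate numbers are those of the sample titles, which differ for some bladders from the numbers in the other labels. By the title numbers no comparison had every same-numbered pair correlated above 0.1, and pairing by the other numbers was not tested. Calls lost under the block were Cdkn1a in both age steps (adjusted p = 0.0776 and 0.0724) and, against middle age, Cdkn2a after vehicle (0.194) and D+Q (0.0755). Whether these bladders are paired is therefore not settled. Values near 0 changed sign. For D+Q against untreated old bladders this held for Cdkn1b with plain library sizes (log2 fold change -0.000119), with limma (-0.0217) and from -0.0156 to 0.0201 with single bladders left out, for Cdkn2c with limma (-0.00924) and from -0.0421 to 0.0857, and for Cdkn2d from -0.00946 to 0.0909. For Cdkn2a it held in D+Q against vehicle, from -0.33 to 0.0394, and in vehicle against water, from -0.28 to 0.0172. The number of all genes called went from 1811 to 716 with the block and 3717 with the deeper bladders between young and middle age, from 780 to 129 with the block and 1731 with DESeq2 between vehicle-treated old and middle-aged bladders, and from 4110 to 2519 from middle to old age in the fit of all groups. Water-treated against untreated old bladders gave 173 calls and 0 to 694 under the alternatives. Depth limits Cdkn2a above all, at 10 to 99 counts per bladder.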

Other observations

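Marker lists not yet described gave these summed levels. Plasma cell markers were 6.55 to 11.3 CPM in young and 136 to 801 CPM in untreated old bladders. Smooth muscle markers were 23436 to 38059 CPM in young and 25022 to 28921 CPM in untreated old bladders, and endothelial markers were 246 to 269 and 184 to 216 CPM. Macrophage markers were 314 to 366 CPM in middle-aged and 410 to 640 CPM in untreated old bladders. Schwann cell markers were 117 to 134 CPM in young and 108 to 123 CPM in untreated old bladders. Adipocyte markers were 0.240 to 33.8 CPM in young and 4.96 to 41.0 CPM in untreated old bladders. Skeletal muscle markers were 512 to 1145 CPM in young and 379 to 492.8 CPM in untreated old bladders.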
